A study of Mus musculus with 8 samples.

Results

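Kirrel, Slc6a19, Clstn3 and Prss12 are 4 genes with higher transcript counts in regulatory T cells (Treg) labelled as lacking Pdpk1 than in Treg with intact Pdpk1. In the latter, Kirrel, Slc6a19 and Clstn3 were at or under the detection limit in at least 1 library, and Prss12 was above it in all. They were selected by name from the same measurements that are given here, from 19826 genes listed in the deposited table and 13847 that were tested, so their levels are a description and carry no test. Polyadenylated RNA was sequenced from CD4+ YFP+ Treg sorted straight from spleen and peripheral lymph nodes of untreated C57BL/6 mice. The 4 WT libraries came from Foxp3 YFP-Cre/+ Pdpk1 +/+ mice and the 4 libraries labelled Pdpk1 KO from Foxp3 YFP-Cre/+ Pdpk1 FL/FL mice. Both groups thus carried the YFP-Cre allele of Foxp3 in 1 copy, and the sort kept the cells that use it. Because Foxp3 is X-linked, such mice also hold Treg that do not make Cre. The labels give no ages. They also do not say whether a library is 1 mouse or a pool, so p-values measure the spread between libraries, which may be technical.

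PDK1, the product of Pdpk1, activates AKT and kinases like it once PI3K has been switched on, a route by which antigen receptor, CD28 and cytokine signals reach metabolism and transcription in T cells. The genes described here are known mostly from other tissues. Kirrel, also called Neph1, encodes an adhesion protein of the immunoglobulin superfamily that joins nephrin and podocin at the slit diaphragm of kidney podocytes. Slc6a19 encodes B0AT1, a sodium-coupled transporter of neutral amino acids in the brush border of gut and kidney tubule. Clstn3 encodes a calsyntenin, a cadherin-repeat protein of the postsynaptic membrane. Prss12 encodes neurotrypsin, a secreted serine protease that cleaves agrin at synapses.

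The genes lie at separate places in the genome (GRCm38, GENCODE release M21). Kirrel (ENSMUSG00000041734) is at chr3:87078593-87174747 on the minus strand. Slc6a19 (ENSMUSG00000021565) is at chr13:73679745-73704865 on the minus strand. Clstn3 (ENSMUSG00000008153) is at chr6:124430759-124464794 on the minus strand, and Prss12 (ENSMUSG00000027978) is at chr3:123446913-123506597 on the plus strand. The sequence just before each start is shown because it is what a reader would compare first between genes that are low and high in the same libraries. Each run is read 5′ to 3′ on the strand of its gene and lies before a start annotated by RefSeq. The CG pairs, the sites at which DNA methylation is usually measured, are in capitals, and bases inside an annotated exon of the gene were left out. For Kirrel 210 of the 250 bases before the RefSeq start lie in a GENCODE exon, so only 40 are shown. The RefSeq start of Slc6a19 is also the start of a short GENCODE transcript. It lies 12229 bases inside the gene as given above, whose longer transcripts begin further upstream. The runs are from RefSeq on GRCm38.p6, at chr3:87174748-87174787 for Kirrel, chr13:73692637-73692886 for Slc6a19, chr6:124464795-124465034 for Clstn3 and chr3:123446663-123446912 for Prss12.
Kirrel: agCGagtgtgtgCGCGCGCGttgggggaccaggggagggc
Slc6a19: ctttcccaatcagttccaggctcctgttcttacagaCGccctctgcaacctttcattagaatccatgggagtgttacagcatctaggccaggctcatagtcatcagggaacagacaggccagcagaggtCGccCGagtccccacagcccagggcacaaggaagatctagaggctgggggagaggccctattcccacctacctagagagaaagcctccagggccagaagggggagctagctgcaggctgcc
Clstn3: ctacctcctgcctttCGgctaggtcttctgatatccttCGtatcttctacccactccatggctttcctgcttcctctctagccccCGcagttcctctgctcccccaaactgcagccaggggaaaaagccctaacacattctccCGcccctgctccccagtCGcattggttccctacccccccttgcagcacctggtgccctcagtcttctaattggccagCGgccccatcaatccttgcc
Prss12: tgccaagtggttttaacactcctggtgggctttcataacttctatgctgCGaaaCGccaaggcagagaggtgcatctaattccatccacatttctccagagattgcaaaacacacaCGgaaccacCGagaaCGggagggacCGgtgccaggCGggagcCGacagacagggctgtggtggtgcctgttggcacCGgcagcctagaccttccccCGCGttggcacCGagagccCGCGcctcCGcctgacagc

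These starts did not share a base composition. Over windows of 300 bases, 250 before and 50 after the RefSeq start, the Kirrel window held 28 CG pairs and 69.3% G or C. Fewer CG pairs were found in 85.8% of the 32851 RefSeq promoters of that length. Prss12 held 19 CG pairs and 61.3% G or C, above 71.9% of promoters. Clstn3 lay near the promoter median of 7 CG pairs, with 8 at the start shown and 6 at a second RefSeq start. Slc6a19 held 4 CG pairs, above 31.4% of promoters. The letters of 8 short motifs were searched on both strands. The forkhead letters GTAAACA are found in 3.65% of all promoters of this length. For RUNX the letters were TGTGGTT, held by 5.27%, and for the E box CACGTG, held by 7.15%. For AP-1, whose subunit gene Jun comes up again among the closest genes, the letters TGACTCA are held by 5.20%. The STAT letters were TTCNNNGAA, held by 8.30% of promoters, and those of the GC box GGGCGG, held by 35.7%. The TATA box was searched as TATAAA, held by 13.6%, and the TCF/LEF motif as ATCAAAG, held by 3.73%. Only the GC box was found, once in Kirrel and once in the first Clstn3 window, and no motif letters were found in the windows of Slc6a19 and Prss12 or at the second Clstn3 start. Thus the windows of the 4 genes had none of these letters in common. At the shares given, a motif held by any 4 promoters at once would be rare, so nothing is concluded from this. For Slc6a19 only the RefSeq start inside the gene was searched.

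The libraries held between 17448095 and 26299577 recovered reads, and 3 reads, the limit that a count of 0 allows, equalled 2.56 to 3.38 normalized counts depending on the library. Intervals and limits cover counting error only. The targeted gene, Pdpk1, had 2600, 2374, 1995 and 1923 normalized counts in WT replicates 1 to 4 and 2505, 1900, 1872 and 1656 in the libraries labelled Pdpk1 KO. The groups overlapped and the log2 difference was -0.17 (exact two-sided permutation p = 0.286). The table gives 1 sum per gene over all exons, and the sources used here do not name the exons flanked by loxP, so this value does not check the genotype. The libraries are called KO-labelled below for that reason. All 7 Treg markers were present in every library, but their mean log2 level differed by -0.248, KO-labelled minus WT (exact permutation p = 0.0286). The transcription factor gene Ikzf2 fell from 9041 ± 940 to 4116 ± 379 normalized counts (log2 difference -1.13, limma adjusted p = 4.5e-06). The interleukin 2 receptor gene Il2ra rose from 15734 ± 914 to 24420 ± 2591 (0.63, limma adjusted p = 0.0011), and the other 5 did not pass. Foxp3 had 5086 ± 740 normalized counts in WT and 5355 ± 743 in the KO-labelled libraries (SD, n = 4 each, exact permutation p = 0.6). Of all tested genes, 611 (4.41%) were higher and 700 (5.06%) lower in the KO-labelled libraries at an adjusted p under 0.05 in limma. Scaling to each library's total (CPM) in place of the authors' size factors gave 360 higher and 1054 lower and moved the median log2 difference of all genes from -0.01 to -0.11.

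Kirrel had the widest separation. WT replicate 1 had 7.89 normalized counts, from 7 reads, and WT replicates 2, 3 and 4 were listed at 0. The KO-labelled replicates 1 to 4 had 216, 243, 112 and 131 normalized counts, from 232, 222, 100 and 154 reads. Every KO-labelled library therefore stood above every WT library, and the lowest of them was 14.2 times the highest WT value and 33.3 times its own 3-read limit. Summed over the group, WT held 7 reads (95% exact Poisson interval 2.81 to 14.4) and the KO-labelled libraries 708 (657 to 762). The means were 1.97 ± 3.95 and 176 ± 63.7 normalized counts (SD, n = 4), a difference of 6.60 on the log2(normalized count + 1) scale. All WT reads came from replicate 1. Without that library, WT was at 0 throughout and the KO-labelled mean was at least 61.9-fold higher than the mean 3-read limit of the remaining WT libraries. In bulk RNA, fewer cells that use a gene and less RNA per cell cannot be told apart, and this holds for each gene here.

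Slc6a19 was low but not absent in WT. WT replicates 1 to 4 had 0, 5.21, 0.921 and 10.5 normalized counts, from 0, 5, 1 and 12 reads. The KO-labelled replicates had 115, 201, 120 and 83.6, from 123, 183, 107 and 98 reads. WT replicates 1 and 3 were at or under the 3-read limit and replicates 2 and 4 above it, while all 4 KO-labelled libraries were at least 32.7 times their own limit. The lowest KO-labelled library was 7.94 times the highest WT library. The group sums were 18 reads (10.7 to 28.4) and 511 (468 to 557), and the means 4.17 ± 4.82 and 130 ± 49.9, a ratio of 31.1 and a log2 difference of 5.18. KO-labelled replicate 2 was the highest library for this amino acid transporter gene and replicate 4 the lowest.

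Clstn3 was detected in most WT libraries. WT replicates 1 to 4 had 13.5, 15.6, 7.36 and 0.878 normalized counts, from 12, 15, 8 and 1 reads, so only replicate 4 was under the limit. The KO-labelled replicates had 173, 160, 93.2 and 95.6, from 186, 146, 83 and 112 reads. The groups did not overlap, with the lowest KO-labelled library at 5.96 times the highest WT library. WT held 36 reads in all (25.2 to 49.8) and the KO-labelled libraries 527 (483 to 574). The means were 9.35 ± 6.65 and 130 ± 42.0, a ratio of 13.95 and a log2 difference of 4.01.

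Prss12 did not match the description of a silent gene. WT replicates 1 to 4 had 47.3, 50.03, 35.0 and 36.9 normalized counts, from 42, 48, 38 and 42 reads, and none was near the 3-read limit. The KO-labelled replicates had 317, 363, 266 and 279, from 340, 331, 237 and 327 reads. WT libraries ranged from 35.0 to 50.03 and KO-labelled libraries from 266 to 363. The lowest KO-labelled library was 5.32 times the highest WT library. Group sums were 170 reads (145 to 198) and 1235 (1167 to 1306), and means 42.3 ± 7.49 and 306 ± 43.4, a ratio of 7.23 and a log2 difference of 2.83. Of the tested genes, 977 (7.06%) had every KO-labelled library above every WT library. All 4 genes described here were among them, which their selection from these values already fixed.

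**Figure D1:**
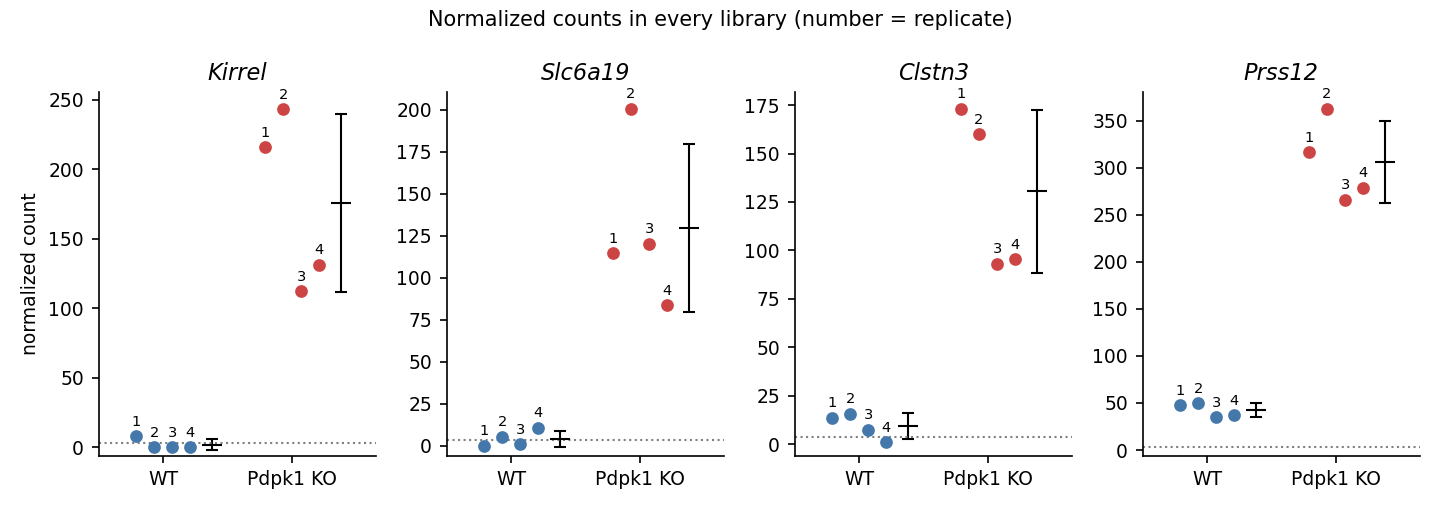
Normalized counts of each gene (vertical axis, linear, own scale per panel) in the 4 WT and 4 KO-labelled libraries. Points are libraries with their replicate number, bars are the mean and SD of 4 libraries, and the dotted line is the highest 3-read limit of 3.38. Kirrel, Slc6a19 and Clstn3 have 3, 2 and 1 WT libraries at or under the limit, and Prss12 has none.

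In RPKM, which divides recovered reads by exon length and by the library's total, the scale on which different genes can be set side by side, Kirrel, Slc6a19 and Clstn3 reached a like level in the KO-labelled libraries. Their means were 1.05 ± 0.377, 1.15 ± 0.405 and 1.18 ± 0.395 RPKM (SD, n = 4), and their ranges over libraries overlapped. Prss12 stood apart from them at 5.25 ± 0.686, with its lowest library at 4.55 against a highest of 1.71 among the others. In WT, Prss12 was again first, at 0.786 RPKM. Clstn3 at 0.0909, Slc6a19 at 0.0402 and Kirrel at 0.0134 followed, and the ranges of these last overlapped. In the ranking by RPKM of the 19785 listed genes with an annotated exon length, the share of genes below Kirrel was 2.80% in WT and 45.9% in the KO-labelled libraries. For Slc6a19 these shares were 6.78% and 46.8%, for Clstn3 13.5% and 47.2%, and for Prss12 40.5% and 67.2%. By RPKM the adhesion, transporter and calsyntenin genes were thus just under the middle of the listed genes at their higher level, and the protease gene was in the upper part. By mean normalized count, which does not divide by length, the shares below in the KO-labelled libraries were 56.6% for Kirrel, 54.1% for Slc6a19, 54.2% for Clstn3 and 61.8% for Prss12.

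The libraries did not rank alike for all the genes. KO-labelled replicates 1 and 2 exceeded replicates 3 and 4 for Kirrel, Clstn3 and Prss12, whereas for Slc6a19 the order was 2, 3, 1, 4. The highest KO-labelled library was 2.40 times the lowest for Slc6a19, 2.17 times for Kirrel, 1.86 times for Clstn3 and 1.36 times for Prss12. To measure likeness, log2 values over the 8 libraries were centred on each gene's own mean, and the root mean square difference was taken between genes. Clstn3 and Prss12 were the closest pair among the 4, at 0.996, and Kirrel and Prss12 the farthest, at 2.10.

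By the same measure, genes other than the 4 were closer to each of them. This is a description over 8 libraries, and genes with large differences between the groups are close by construction. Kirrel was closest to Trnp1, a nuclear protein gene, at 0.95. Trnp1 also had reads in WT replicate 1 alone, at 4.51 normalized counts, and 76.3, 55.9, 22.5 and 31.6 in the KO-labelled replicates. Next came the latrophilin receptor gene Adgrl2 at 1.26, the adhesion gene Mpzl2 at 1.29 and the C1q-like gene C1ql2 at 1.36. These last were at 0 in all 4 WT libraries, and their KO-labelled means were at least 11.7-fold, 11.2-fold and 12.5-fold higher than the mean 3-read limit. The transporter gene Slc6a19 was closest to Adgrl2 at 0.99, Thbs1, which encodes the matrix protein thrombospondin, at 1.06, C1ql2 at 1.09 and Mpzl2 at 1.10. Clstn3 was closest to the Wnt ligand gene Wnt5b at 0.54, the mucin gene Muc13 at 0.67, the prohormone convertase gene Pcsk1 at 0.82 and the interferon-induced gene Ifi44 at 0.88. WT replicate 4 was the lowest of the 8 libraries for Clstn3 and for each of these. Prss12 had the nearest companions, the AP-1 subunit gene Jun at 0.30, the pseudokinase gene Trib3 at 0.33, the semaphorin gene Sema7a at 0.35 and Ms4a4a at 0.36. Mean normalized counts in WT and KO-labelled libraries were 427 and 2459 for Jun and 89.7 and 509 for Trib3.

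**Figure D2:**
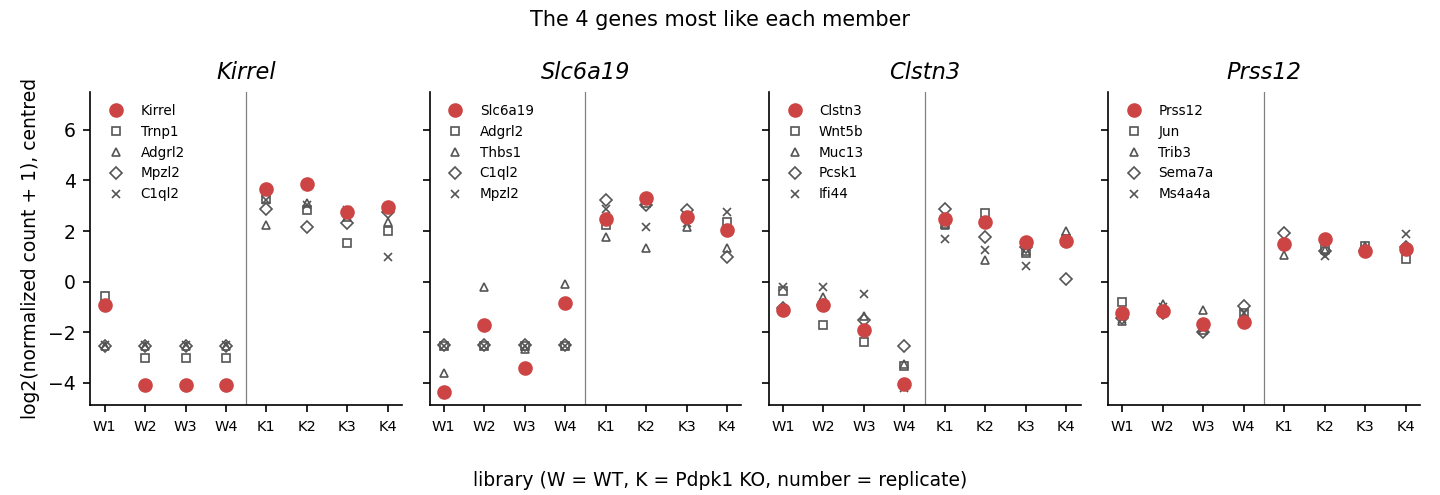
Log2(normalized count + 1), centred on each gene's own mean over the 8 libraries (vertical axis), for each of the 4 genes (red) and the 4 protein-coding genes closest to it (grey symbols). The horizontal axis lists the 4 WT (W) and 4 KO-labelled (K) libraries by replicate, and the root mean square differences run from 0.30 for Jun beside Prss12 to 1.36 for C1ql2 beside Kirrel.

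How common such a pattern is was counted over the whole table with a rule of size. A gene counted when its WT mean was under 25 normalized counts and every KO-labelled library was at least 4 times the highest WT library, with values under 3 reads set to the 3-read level. Of 19826 listed genes, 12 (0.0605%) met it. Kirrel, Slc6a19 and Clstn3 were among them, and Prss12 was outside because of its WT mean of 42.3. The genes with the highest KO-labelled means were Cyp26b1, which encodes an enzyme that degrades retinoic acid (20.9 in WT and 176 in the KO-labelled libraries), then Kirrel, Clstn3, Slc6a19 and Ms4a4a (16.0 and 117). They were followed by Tcrg-C3 (3.65 and 90.9), a T-cell receptor gamma constant gene with near-identical copies whose value is uncertain, the adhesion gene Hepacam2 (10.8 and 81.0) and Trnp1 (1.13 and 46.6). With the groups exchanged, the rule also found 12 genes. A 2-fold rule gave 38 genes and 79 with the groups exchanged. Leaving out 1 library in turn gave 12 to 19 genes, the most without KO-labelled replicate 3, and 14 to 25 with the groups exchanged, the most without KO-labelled replicate 4. Kirrel, Slc6a19 and Clstn3 met it each time, which was fixed in advance. Leaving out a library cannot lower the smallest KO-labelled value or raise the highest WT value, and all their WT values are under 25.

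**Figure D3:**
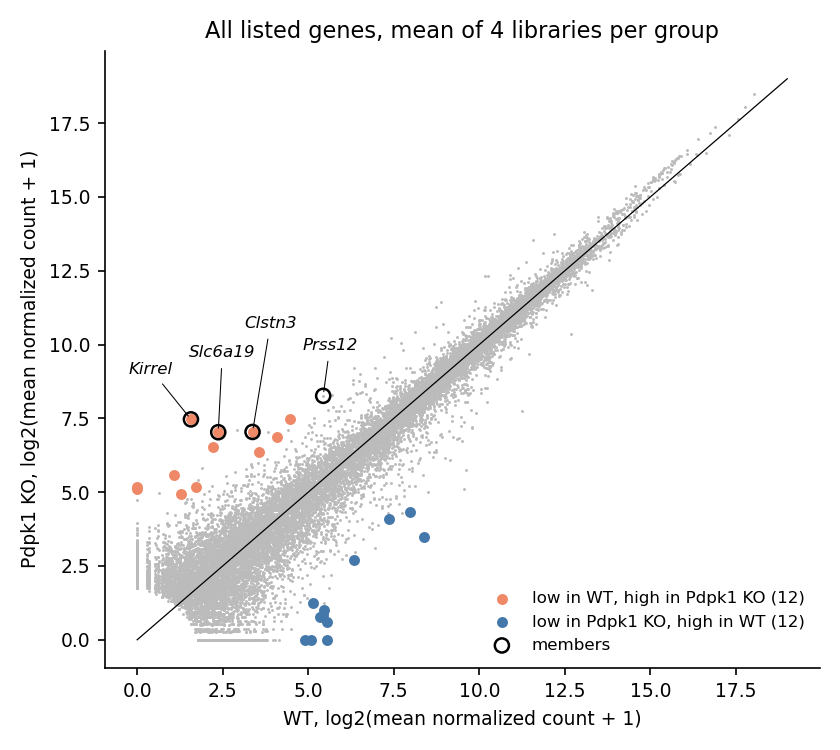
Mean of 4 libraries per group for all 19826 listed genes as log2(mean normalized count + 1), WT on the horizontal and KO-labelled on the vertical axis, with the line of equal values. Black rings mark Kirrel, Slc6a19, Clstn3 and Prss12, orange points the 12 genes low in WT and high in the KO-labelled libraries and blue points the 12 of the reverse kind.

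The genes known to work with these proteins were read from the same fit. Lists were made of each gene's family and partners, of neuronal and synaptic genes and of kidney tubule and brush border genes. They named 188 genes besides the 4, of which 89 were in the table and 59 were tested. At an adjusted p under 0.05, 3 were higher (5.08%) and 5 lower (8.47%), against 4.41% and 5.06% of all tested genes. These shares are near the background or, for the lower genes, above it, and no test was made of the lists. The median log2 difference of the 59 was -0.04, against -0.01 over all tested genes.

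Among slit diaphragm genes and relatives of Kirrel, 1 of 11 tested was higher and 0 lower in limma (2 higher and 0 lower at an unadjusted p under 0.05, and 0 lower in edgeR and DESeq2). It was Cd2ap, an adaptor that links membrane receptors to actin and is also used at the T-cell synapse. Cd2ap rose from 1677 ± 140 to 2608 ± 401 normalized counts (SD, n = 4, log2 difference 0.63 ± 0.12 SE, limma adjusted p = 0.0027). The paralogue Kirrel3 had 12.4, 13.6, 13.8 and 23.7 in WT and 13.97, 34.0, 14.6 and 0 in the KO-labelled libraries, and did not pass the test (log2 difference -0.78, limma adjusted p = 0.685). Kirrel2 and the nephrin gene Nphs1 were not analysed here.

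Of the SLC6 transporter family and the partners of Slc6a19, 3 were tested and 0 passed in limma, edgeR or DESeq2, with 1, Slc6a8, at an unadjusted p under 0.05. The taurine transporter gene Slc6a6 had 2303 ± 225 normalized counts in WT and 2307 ± 112 in the KO-labelled libraries. The creatine transporter gene Slc6a8 had 36.3 ± 17.6 and 10.1 ± 8.65 (log2 difference -2.32, limma adjusted p = 0.109), and the glycine transporter gene Slc6a9 6.58 ± 11.5 and 9.48 ± 6.40. Slc6a18, the neighbouring relative of Slc6a19, was not analysed here.

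Of 19 tested relatives and partners of Clstn3, 1 was higher and 2 lower. The paralogue Clstn1 fell, opposite to Clstn3, from 930 ± 111 to 576 ± 71.6 (log2 difference -0.69 ± 0.13 SE, limma adjusted p = 0.0030). The amyloid precursor gene App, whose product binds the same adaptors as calsyntenins, rose from 42.6 ± 39.7 to 153 ± 52.7 (2.12 ± 0.50 SE, adjusted p = 0.0132). That call was lost with the level of macrophage markers as a covariate (log2 difference 1.09, adjusted p = 0.311) and without KO-labelled replicate 3. The presenilin gene Psen2, part of the protease that cuts calsyntenins and App, fell from 2190 ± 193 to 1535 ± 176 (-0.52 ± 0.11 SE, adjusted p = 0.0064). Its call was lost with that covariate (log2 difference -0.33, adjusted p = 0.172) and, with a like log2 difference of -0.47, when the 3 libraries with most macrophage marker counts were left out (adjusted p = 0.0933). Clstn2 was not analysed here.

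Of 15 tested genes for the substrate, inhibitors and relatives of the Prss12 protease, 1 was higher and 0 lower in limma (1 lower at an unadjusted p under 0.05, 0 in edgeR and DESeq2). Dag1, the gene of dystroglycan, a surface receptor that binds agrin, rose from 780 ± 178 to 1541 ± 227 normalized counts (log2 difference 0.997 ± 0.15 SE, limma adjusted p = 0.00067). Agrn, the gene of the substrate agrin, had 279 ± 61.7 and 207 ± 76.4 (log2 difference -0.49, limma adjusted p = 0.316). Serpini1, which encodes the inhibitor neuroserpin, had 234 ± 20.6 and 179 ± 35.8 (-0.40, adjusted p = 0.248).

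Among other neuronal and brush border genes, none was called higher beside the 4. Of 6 tested neuronal and synaptic genes, 0 were higher and 3 lower in limma, edgeR and DESeq2 alike, and 0 were higher at an unadjusted p under 0.05. In limma, 4.41% of all tested genes were higher and 5.06% lower, and this list was not tested as a set. The synaptic vesicle gene Syp fell from 592 ± 98.9 to 190 ± 52.4 (log2 difference -1.67 ± 0.21 SE, limma adjusted p = 9.61e-05), and the microtubule gene Map2 from 43.0 ± 18.1 to 1.01 ± 1.18 (-4.54 ± 0.81 SE, adjusted p = 0.0021). Dlg4, a scaffold gene of the postsynaptic density, fell from 1147 ± 47.9 to 743 ± 57.5 (-0.63 ± 0.10 SE, adjusted p = 0.0012), a call lost without WT replicate 2 and KO-labelled replicates 2 and 3 (log2 difference -0.55, adjusted p = 0.0753). Of 5 tested kidney tubule and brush border genes, 0 passed in limma, edgeR or DESeq2, and 0 at an unadjusted p under 0.05. 

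Genes next to the 4 along the chromosome were looked at in the same fit. The 3 nearest protein-coding genes on each side of Kirrel, Slc6a19, Clstn3 and Prss12 came to 24, of which 15 were in the table and 13 were tested. None passed in limma, which called 9.47% of all tested genes. At an unadjusted p under 0.05 there were 6 of 13, against 23.0% of all tested genes. Of the 13, edgeR called 0 and DESeq2 4. Over all 13847 tested genes, edgeR called 599 higher and 655 lower, and DESeq2 850 and 912. The log2 differences of the 13 neighbours ran from -0.98 to 3.01 with a median of -0.15. The 2 highest were macrophage genes, Cd163 beside Clstn3 (3.01, limma adjusted p = 0.12) and Cd5l beside Kirrel (1.86, limma adjusted p = 0.0983). The lowest was Trip13, on the far side of the Slc6a19 locus, at -0.98 (limma adjusted p = 0.0707), followed by Sec24d near Prss12 at -0.76 (limma adjusted p = 0.0645). Lrba near Kirrel was at -0.36 (limma adjusted p = 0.0604). With CPM these 3 passed, at -1.09, -0.87 and -0.47, under a scaling that lowers all genes. The neighbours Pex5 of Clstn3, Slc12a7 of Slc6a19, Cd1d1 of Kirrel and Mettl14 of Prss12 had log2 differences of 0.16, 0.06, -0.11 and 0.03.

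**Figure D4:**
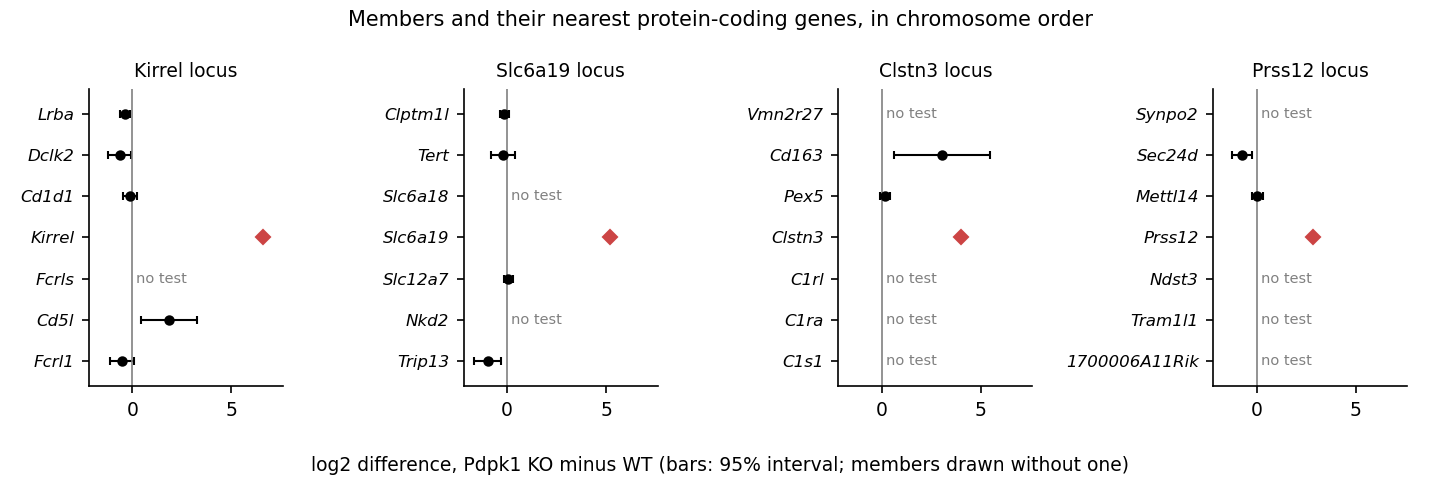
Log2 difference, KO-labelled minus WT (horizontal axis), for each of the 4 genes (red diamonds, drawn without an interval) and its 3 nearest protein-coding genes on each side in chromosome order (black, with the 95% interval of the limma fit). Genes marked "no test" were below the filter on low values or were not analysed here, and the 13 tested neighbours run from -0.98 to 3.01.

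Overlapping and similar genes bear on how far the reads can be assigned. Whether the counting used strand is not given in the sources used here. Reads of a gene and of an antisense partner therefore cannot be told apart by strand here, and the exon bases that they share are given instead. Kirrel overlaps Gm37855, a lincRNA gene on the other strand with no exon base in common, which had 0 normalized counts in 6 libraries and 4.49 and 6.83 in KO-labelled replicates 3 and 4. Slc6a19 overlaps the antisense gene Slc6a19os without a shared exon base. Prss12 shares 157 exon bases with the antisense gene Gm35065 and overlaps Gm43590. These last 3 were not analysed here. Of all runs of 50 bases in their transcripts, 0 of 7461 for Kirrel, 0 of 5090 for Slc6a19 and 0 of 5007 for Clstn3 were found in transcripts of another gene. For Prss12, 108 of 2553 (4.23%) were, all in Gm35065.

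Markers of other cell types were set beside the 4 genes. All 19 macrophage markers were in the table, and of 17 tested, 8 were higher and 1, Axl, lower. Over all tested genes, 4.41% were higher and 5.06% lower. Each of the higher calls except that of Lyz2 was lost without KO-labelled replicate 2, and also without KO-labelled replicate 3. Summed over the list, WT replicates 1 to 4 had 1648, 3074, 1590 and 1789 normalized counts and the KO-labelled replicates 2079, 6958, 5367 and 2366. The groups overlapped in this sum (log2 sum, difference 0.918, exact two-sided permutation p = 0.143). The mean log2 level over the list differed by 1.71 (exact two-sided permutation p = 0.0857). Axl had 1296, 1130, 941 and 1152 in WT by replicate, most of the counts in replicates 1, 3 and 4 but not in replicate 2. Without it, a setting chosen after seeing the data, the sums were 352, 1944, 649 and 637 in WT and 1675, 6163, 4590 and 1949 in the KO-labelled replicates (log2 sum, difference 2.09, exact permutation p = 0.0571). Marco, Mertk, Vsig4, Fcgr1, Spic and Cd14 were at 0 in at least 1 library. WT replicate 2, the WT library with most of these counts by either sum, had 0 for Kirrel, 5.21 for Slc6a19, 15.6 for Clstn3 and 50.03 for Prss12. KO-labelled replicate 1, at 2079 with Axl and 1675 without, had 216, 115, 173 and 317. With the mean log2 marker level as a covariate, the log2 differences were 7.41 for Kirrel, 4.09 for Slc6a19, 3.86 for Clstn3 and 2.73 for Prss12. Without WT replicate 2 and KO-labelled replicates 2 and 3, the 3 libraries highest in these markers, they were 6.35, 5.14, 4.41 and 2.88. Since the 4 genes were chosen from these libraries, these values are a description and carry no test.

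**Figure D5:**
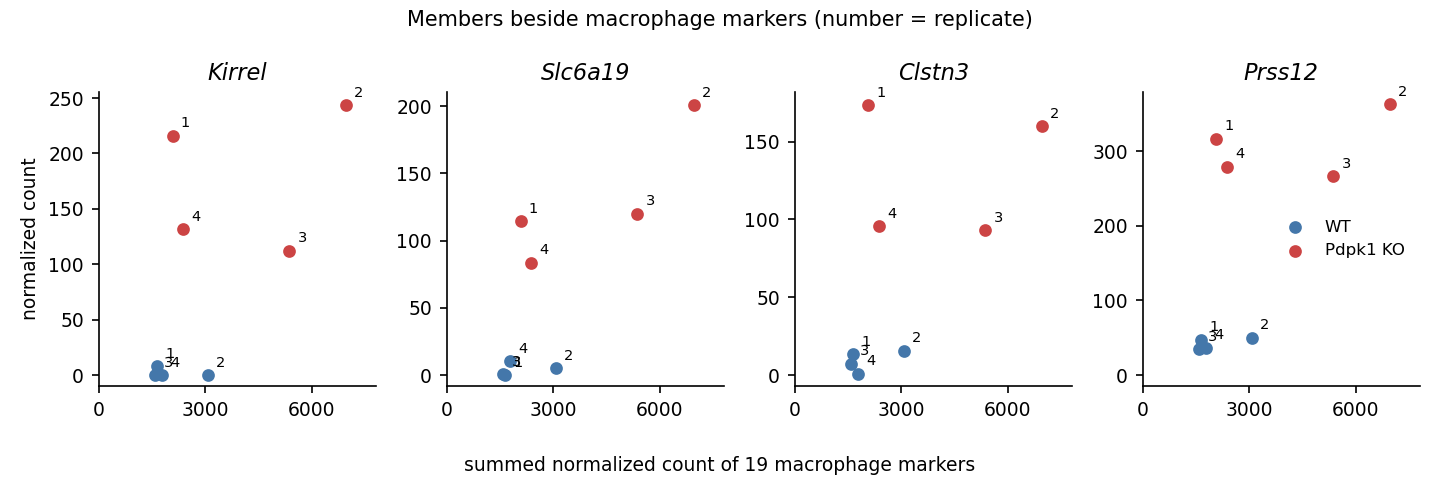
Normalized count of each gene (vertical axis, linear, own scale) against the summed normalized count of 19 macrophage markers (horizontal axis), one point per library with its replicate number, WT in blue and KO-labelled in red. Marker sums, Axl included, run from 1590 to 3074 in WT and from 2079 to 6958 in the KO-labelled libraries.

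Other marker lists were summed in the same way, and in most of them 1 gene carried the sum. Of 4 neuron markers, Snap25 and Syt1 were not analysed here, and the other two summed to between 0 and 18.04 normalized counts in WT and between 2.19 and 26.9 in the KO-labelled libraries. Of 4 epithelial markers, 3 were in the table, with sums of 217 to 342 in WT and 81.9 to 110 in the KO-labelled libraries. The exact permutation p was 0.0571 for their mean log2 level and 0.0286 for their log2 sum. The adhesion gene Epcam carried these sums, falling from 237 ± 56.8 to 81.8 ± 19.9. The sums of 5 B-cell markers were 358 to 537 and 166 to 305 (exact permutation p = 0.4 for the mean log2 level and 0.0286 for the log2 sum). Cd79b fell from 367 ± 73.1 to 165 ± 43.7, while Cd79a was at 48.2 ± 13.3 and 83.2 ± 31.6. The sums of 3 endothelial and stromal markers were 4353 to 5255 and 5564 to 6476. The exact permutation p was 0.286 for their mean log2 level and 0.0286 for their log2 sum. Pecam1, which rose from 4843 ± 452 to 6188 ± 424, made up nearly all of these sums, while Col1a1 was at 16.5 ± 11.96 and 9.18 ± 3.92.

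The CD8 T-cell markers Cd8a and Cd8b1 differed in mean log2 level by 0.83 between the groups (exact permutation p = 0.0286), with sums of 268 to 512 in WT and 365 to 528 in the KO-labelled libraries. Cd8a had 2.25 to 31.3 and 35.9 to 55.9, and neither gene passed in limma. NK-cell markers summed to 78.2 to 141 and 59.6 to 108 (exact permutation p = 0.171), dendritic-cell markers to 12.4 to 98.4 and 20.5 to 64.0 (p = 1), neutrophil markers to 0 to 19.3 and 0 to 18.6 (p = 1) and the platelet marker Itga2b to 4.60 to 63.2 and 29.6 to 62.3 (p = 0.286), each p from the same exact permutation test. For the log2 sums, the exact permutation p was 0.229 for Treg, 0.314 for CD8 T-cell, 0.257 for NK-cell, 0.914 for dendritic-cell and 0.286 for platelet markers. The permutation p-values over marker lists, Treg included, are not adjusted for their number. Beside Kirrel, Slc6a19, Clstn3 and Prss12, the part of these cell types was not tested.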

How the data were processed

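The deposited table holds a normalized signal per gene and library, the authors' read count over the library's size factor (DESeq2 1.21). Per the submitters' processing notes, the build was GRCm38 and the other tools were Subread 2.0.1 with featureCounts, SAMtools 1.11, STAR 2.7.6a and Trimmomatic 0.39. The annotation release was not given in the sources used here, and symbols, lengths and positions are from GENCODE M21.

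In every library 100% of values were whole multiples of 1 read (tolerance 0.001), so whole reads were recovered. Genes with at least 10 normalized counts in at least 4 of 8 libraries were tested with limma 3.58.1 (R 4.3.3, trend, two-sided, Benjamini-Hochberg, threshold 0.05) on log2(normalized count + 1), which understates the change of low genes. On the recovered reads edgeR 4.0.16 called 599 genes higher and 655 lower, and DESeq2 1.42.0 850 and 912. Single values were compared by exact permutation over 70 assignments, whose smallest p is 0.0286. The steps were tested on simulated data.

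The 4 genes and all lists were chosen with earlier results of these data known. Named were, from each list, the called genes with the smallest adjusted p (up to 4) and paralogues of the 4, the 4 closest genes of each, overlapping genes and the 8 highest genes of the low-to-high rule. Single neighbours, SLC6 genes and markers were named after their values were seen. Alternatives covered pseudocount, filter, scaling, tool, replicate number, macrophage markers and left-out libraries.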

Additional observations from a re-analysis of the deposited data

Results flagged for a closer look

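In 6 of 65 groups of 4 libraries that were looked at (9.23%), 1 library lay far from the other 3 by Dixon's 95% limit on the gap. For normally distributed values chance gives about 1 in 20. Where 3 libraries are at 0, any count in the other passes the limit, so that rate does not hold for genes near 0. Among the 4 genes, the group with such a library was Kirrel in WT, where replicate 1 had 7.89 normalized counts and the others 0. Trnp1, the gene closest to Kirrel, had the same pattern, with 4.51 in WT replicate 1 and 0 in the others. Cyp26b1 had 31.6 in WT replicate 4 against 16.9 to 17.7 in the others, and 268 in KO-labelled replicate 1 against 137 to 156. Psen2 had 1271 in KO-labelled replicate 2 against 1614 to 1634. The summed macrophage markers reached 3074 in WT replicate 2 against 1590 to 1789.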

How the results depend on the processing

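Each of the 4 genes stayed higher under every alternative run, which their selection from these values largely fixed. As every KO-labelled library stood above every WT library, leaving out libraries could not reverse the sign. Leaving out 1 library in turn gave log2 differences of 6.34 to 7.39 for Kirrel, 4.59 to 5.77 for Slc6a19, 3.32 to 4.37 for Clstn3 and 2.75 to 2.92 for Prss12. A pseudocount of 5 gave 4.76 for Kirrel and 3.96 for Slc6a19, smaller because a larger number is added to WT values near 0. Depth limits Kirrel and Slc6a19 most, since WT held 7 and 18 reads.

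Genes called higher numbered 360 with CPM (scaling by library total), 292 with the macrophage covariate, 167 without the 3 libraries highest in macrophage markers and 389 to 588 with 1 library left out. Genes called lower numbered 1054, 368, 305 and 495 to 724. The cause was not tested, except that the 2 settings with fewer libraries have fewer samples. With the replicate number as a block, 1243 were higher and 1292 lower. The main fit did not pair libraries by number. Correlations of same-numbered deviations were all positive, at 0.217, 0.092, 0.048 and 0.113, and 3 of 4 WT libraries correlated best with their own number. Whether equal numbers mark a pair or a batch was not tested.

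Of the listed relatives and partners, 2 to 4 were higher and 5 to 6 lower with 1 library left out, and 3 were lower without the 3 libraries. Of the 8 called, 5 passed under all alternatives that tested them. Of the 13 tested neighbouring genes, 3 were called with CPM, 1 with quantile normalization, 4 with DESeq2, 4 with the replicate block and 0 to 2 with 1 library left out. Calls over all 13847 tested genes also moved with the setting. Higher and lower calls numbered 360 and 1054 with CPM and 613 and 734 with quantile normalization. They numbered 850 and 912 with DESeq2 and 1243 and 1292 with the block. Without Axl, a setting added after seeing the data, the macrophage marker difference was 1.86 as a mean log2 level and 2.09 as a log2 sum. With Axl these were 1.71 and 0.918. Foxp3, at 0.08, changed sign with CPM (-0.0333), and leaving out 1 library in turn gave -0.00924 (without KO-labelled replicate 1) to 0.166. The 2-fold rule gave 38 low-to-high genes and 79 of the reverse kind, and leaving out 1 library 12 to 19 and 14 to 25.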
